A study of Mus musculus with 4 samples.

Results

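The cells described here are 56 of the 3494 cells of the early headfold (EHF) library, 1.60% (95% Clopper-Pearson interval 1.21 to 2.08). They were chosen by their own counts: each holds at least 1 unique molecular identifier (UMI, 1 captured mRNA molecule) of Foxf1 and at least 1 UMI of Pitx1 or Tbx4, and they are called members in what follows. The study profiled single cells of mouse embryos at 3 stages of gastrulation, mid to late streak (MS-LS), no bud to early bud (OB-EB) and EHF, which together gave 11123 cells, to follow the descendants of the primitive streak towards the heart. The embryos of all 3 stages carried TnEGP-CreERT2/+ and R26Rtdtomato/R26Rtdtomato and had received tamoxifen, given by oral gavage at 0.08 mg/bw. Those at MS-LS were dissected at E6+21h after a dose at E6+5h, those at OB-EB at E7+3h after a dose at E6+21h, and those at EHF at E7+14h after a dose at E7+7h. Cre was therefore made where T is expressed and the tdTomato reporter marks cells that had transcribed T while tamoxifen was active, and their descendants. The embryos of the library were pooled and their cells cannot be assigned to single embryos, and the other EHF cells compared with the members came from the same embryos with the same alleles and the same dose.

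The allantois grows from the posterior end of the primitive streak into the exocoelom, fuses with the chorion and supplies the vessels of the umbilical cord. It belongs to the extraembryonic mesoderm, which also lines the yolk sac, the amnion and the chorion. Foxf1 is a forkhead factor of extraembryonic and lateral plate mesoderm, and Pitx1 and Tbx4 encode a homeodomain and a T-box factor of the posterior lateral plate and hindlimb field, of which Tbx4 is needed for the allantoic vasculature. Hoxd9 is a posterior homeobox gene, and BMP4, Hedgehog and VEGF signalling all act in the formation and vascularisation of this tissue.

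On GRCm38, Foxf1 lies on chromosome 8 from 121084386 to 121088144 on the plus strand, Pitx1 on chromosome 13 from 55825051 to 55836192 on the minus strand, Tbx4 on chromosome 11 from 85886422 to 85916097 on the plus strand, and Hoxd9 on chromosome 2 from 74697727 to 74700208 on the plus strand. Promoter windows are shown for the marker genes that the RefSeq table matched, 2 of 4, to give the sequence context of the markers. They are those of Hoxd9 and Tbx4, and Foxf1 and Pitx1 are named only. Each is the plus strand from 250 bases before to 50 bases after the RefSeq start on GRCm38.p6, for Hoxd9 chr2:74697513-74697812 and for Tbx4 chr11:85896515-85896814. The Tbx4 window lies inside the gene span given above, so it belongs to a start other than the first base of that span. In Hoxd9 the capitals mark the T-box motif AGGTGTGA from base 104 of the window, and in Tbx4 they mark the motif TTTAT from base 166.
Hoxd9: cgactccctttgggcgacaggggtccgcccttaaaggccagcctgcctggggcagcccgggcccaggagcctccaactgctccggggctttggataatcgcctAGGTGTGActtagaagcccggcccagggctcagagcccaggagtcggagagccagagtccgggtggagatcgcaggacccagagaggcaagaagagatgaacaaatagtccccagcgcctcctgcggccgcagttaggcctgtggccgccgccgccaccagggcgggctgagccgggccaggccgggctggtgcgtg
Tbx4: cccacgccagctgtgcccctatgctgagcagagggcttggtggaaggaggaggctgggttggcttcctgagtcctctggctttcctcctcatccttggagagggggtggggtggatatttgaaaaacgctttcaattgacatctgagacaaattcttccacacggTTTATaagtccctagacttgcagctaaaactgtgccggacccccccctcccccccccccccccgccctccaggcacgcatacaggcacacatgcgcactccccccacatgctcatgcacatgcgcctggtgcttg
Searched on both strands, AGGTGTGA occurred in 1.28% of 32851 promoter windows of the same length and TTTAT in 40.0%. The Tbx4 window held no AGGTGTGA and the Hoxd9 window held no TTTAT. These matches describe letters and were not tested against the expression data.

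The 3494 EHF cells held 1004 to 36920 UMIs each, and the members were deeper, with a median of 7939.5 UMIs against 5562 in the other 3438 EHF cells. The rule depends on depth: of the 2739 cells with at least 3500 UMIs, thinned at random to that number, 21 met it. Barcodes shared between libraries numbered 12 to 18 per pair, and 1 member was among them. Levels below are UMIs summed over a group of cells per 1000000 UMIs of that group (CPM), with exact Poisson 95% intervals. All members come from 1 library, so no test between groups was possible, and the intervals cover counting error only and leave out the spread between cells and embryos.

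Foxf1 was detected in 318 EHF cells, Pitx1 in 110 and Tbx4 in 7. Pitx1 carried the rule, with a UMI in 55 of the 56 members, whereas Tbx4, the defining allantois factor among the markers, was found in 3 members, of which 1 had no Pitx1 UMI. The members held 1 to 7 UMIs of Foxf1, 26 of them a single one. Just inside the rule lay 15 members with exactly 1 UMI on each side of it. Just outside lay 262 cells with Foxf1 but neither Pitx1 nor Tbx4, with a median of 6295 UMIs, and 56 cells with Pitx1 or Tbx4 but no Foxf1, with a median of 5072. Of the markers, Hoxd9 alone was not used by the rule, and it stood at 79.2 CPM (55.5 to 109.7) in members and 7.53 CPM (6.37 to 8.84) in the other cells. Its 36 UMIs came from 22 members, at most 5 from a cell. Vcam1, the adhesion molecule with which the mature allantois meets the chorion, was too low in the library to be read, with 9 UMIs in the other cells and none in members. Since Tbx4 and Hoxd9 were each absent from most members at this depth, the cells are named here by their genes and not as allantois.

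Among the genes with the highest ratios of members over the other EHF cells were Hox genes, contractile and scaffold genes, and receptors for guidance and matrix molecules. Of 7455 genes with a mean level of at least 10 CPM over both groups, 599 were at least 2-fold higher in members (8.03%) and 507 at least 2-fold lower (6.8%), and for 545 and 376 of these the counting interval lay off equality or the ratio was a bound. These percentages are the background for the counts of listed genes that follow. A gene at 6.67 CPM or less in one group passes this level only by being at least 2-fold higher in the other, which was so for 102 of the 599 and 213 of the 507, so counts of listed genes describe and support nothing. Of the genes found in at least 25% of the members, Hoxc8 had the highest ratio, with 50.6 CPM (32.1 to 76.0) in members against 1.61 in the other cells, a log2 ratio of 4.98 (4.14 to 5.80). Of its 55 UMIs in the library, 23 were in 20 of the members. Tagln and Acta2, which encode the actin-binding transgelin and smooth muscle actin, had log2 ratios of 3.63 and 3.60, behind the transcript C430049B03Rik at 3.77. Hoxb6 and Hoxd9 had 3.50 and 3.40, the hyaluronan receptor gene Cd44 had 3.30 and the mesenchymal cadherin gene Cdh11 had 3.05. The guidance receptor genes Unc5c and Nrp1 had 2.98 and 2.85, the ephrin gene Efnb3 had 2.76, and the large scaffold gene Ahnak had 2.90. Over the 20 leading genes other than Mest, the share of members with a UMI ran from 26.8% for C430049B03Rik to 66.1% for Pmp22. Mest, an imprinted gene of embryonic mesoderm, differed from these, with a UMI in every member, a median of 11.5 and up to 46 in a cell, at 1765 CPM against 225 in the other cells.

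**Figure D1:**
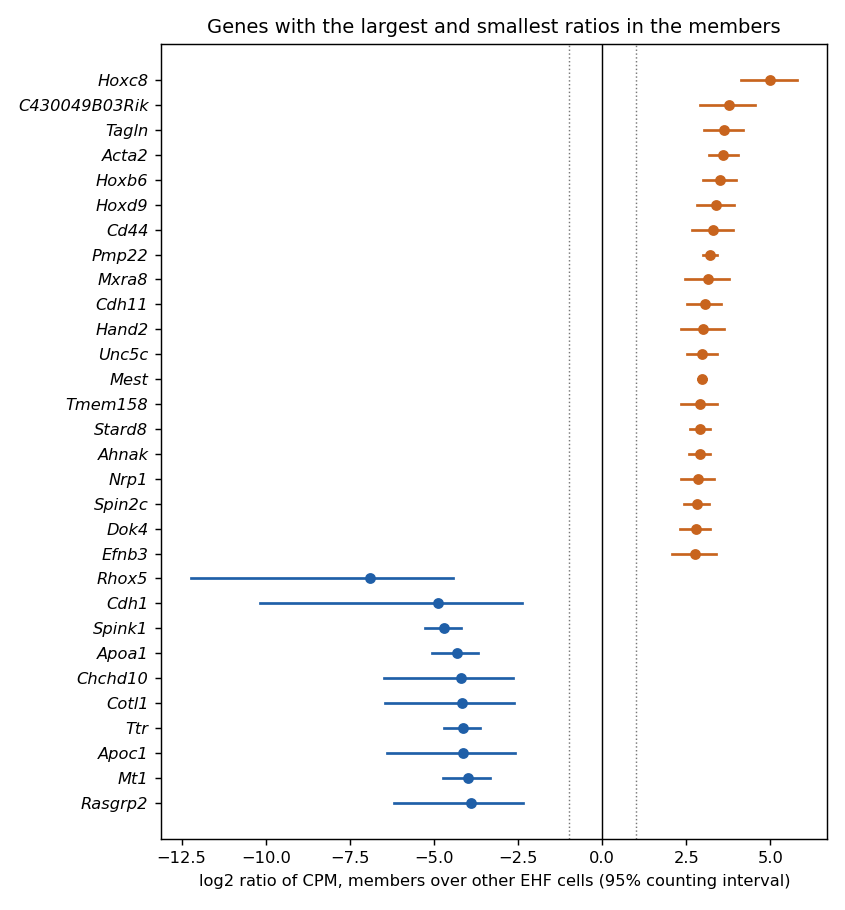
The 20 genes with the largest and the 10 with the smallest ratio of members over other EHF cells, among genes found in at least 25% of the cells of the higher group. Points are log2 ratios of summed CPM, lines their 95% counting intervals and dotted lines a ratio of 2 in either direction. Hoxc8 stands highest at 4.98 and Rhox5 lowest at -6.90.

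The 10 lowest ratios among genes found in at least 25% of the other cells ran from -6.90 to -3.91. Rhox5, a homeobox gene of the extraembryonic ectoderm, had 1 UMI in the members and 5253 in the other cells, a log2 ratio of -6.90. Cdh1, the epithelial cadherin gene, also had 1 UMI, against 1286. Spink1, Apoa1 and Ttr, which encode secreted products of visceral endoderm, had log2 ratios of -4.71, -4.33 and -4.14. The other 5 were Chchd10, Cotl1, Apoc1, Mt1 and Rasgrp2. Spink1 was found in 42.9% of members, with at most 3 UMIs in a cell, and in 37.1% of 97 cells with heart genes, also with at most 3 (median depth 6408 UMIs). The origin of these few UMIs was not tested.

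Hox genes set the position of a cell along the body axis, those of higher number more posteriorly. Of the 10 genes of groups 9 to 13 in the table, 3 passed the level filter: Hoxd9, Hoxa10 at 26.4 CPM against 1.51 and Hoxb9 at 19.8 against 2.71. Below the filter, Hoxa11 had no UMI in members, Hoxc9 had 8 UMIs in members and 25 in the other cells, and Hoxc10 had 4 and 3. Of the 21 genes of groups 1 to 8, 9 passed, 6 at least 2-fold higher and 1 lower, and in both lists together 5 of the 9 higher genes were at 6.67 CPM or less in the other cells, so that passing fixed their direction. The higher ones included Hoxc8, Hoxb6, Hoxb8 at 28.6 against 7.03 CPM and Hoxd1 at 48.4 against 8.08. Hoxb1 was lower, at 19.8 against 54.1 CPM, Hoxb2 was within 2-fold, and Hoxa2, Hoxa3, Hoxa4 and Hoxd8 had no UMI in members. In the other cells the latter were at 9.69, 4.42, 0.904 and 0.753 CPM. The interval of a gene with no UMI in members reached 8.12 CPM, and no ratio was formed for Hoxa3, Hoxa4 and Hoxd8. Hoxc6, below the filter, had 7 UMIs in the members and 3 in all other cells. At least 1 UMI of Hoxd9, Hoxc8 or Hoxb6 was present in 41 of the 56 members. The caudal homeobox gene Cdx2 was at 302 CPM (253 to 357) against 112, and Cdx4 at 22.0 against 6.32, while Cdx1 was lower at 19.8 against 172 CPM.

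Several transcription factors of the lateral plate were higher. Of 28 listed genes 17 passed the filter, 8 of them at least 2-fold higher and 3 lower. Passing fixed the direction of 2 of the 8 and 2 of the 3. Hand1, a bHLH factor of extraembryonic and cardiac mesoderm, was found in 55 of the 56 members at 572 CPM (505 to 646) against 118. Hand2 was at 55.0 against 6.83 CPM, Gata6 at 94.7 against 22.4, Tbx20 at 77.0 against 14.0, and Foxf2, the paralogue of Foxf1, at 26.4 against 1.71. Snai2, a repressor of epithelial genes, was at 39.6 against 4.37 CPM. Meis1, Gata2 and Lmo2 were at least 2-fold lower, with 3, 3 and 7 UMIs in the members, and the interval for Meis1 held 0 (-3.82 to 0.02).

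In the BMP list, 9 of the 16 genes that passed were at least 2-fold higher and 1 was lower, with a median log2 ratio of 1.39 against 0.06 over all genes tested. Of the ligands, Bmp4 was at 156 CPM (122.1 to 197) against 33.8, and Bmp2, Bmp5 and Bmp7 were 2-fold or more higher as well. Of the genes known to respond to BMP, Msx1 was at 238 CPM (195 to 287) against 48.9 and Msx2 at 101 against 21.0, and the feedback genes Bambi, Smad6 and Smad7 had log2 ratios of 1.81, 1.71 and 2.10. Id2 went the other way, at 134 against 392 CPM, and Id1 and Id3 were within 2-fold. Of the extracellular antagonist genes, Nog had 3 UMIs in members and 73 in the other cells, Chrd 0 and 74, and Grem1 0 and 6, and no ratio was formed for Chrd and Grem1.

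In the Hedgehog list 2 of 7 genes passed 2-fold, the receptor gene Ptch1 at 143 against 40.2 CPM and Gli3 at 90.2 against 30.1. The ligand genes Shh and Ihh, as well as Gli1, had no UMI in members. In the Wnt list 3 of 10 were higher and 2 lower, and passing the filter fixed the direction of the 2 lower. Wnt5a was at 77.0 CPM (53.7 to 107) against 12.4, Nkd1, a feedback inhibitor, at 132 against 35.5, and the secreted inhibitor genes Sfrp1 and Frzb had 3 and 2 UMIs in members, log2 ratios of -2.23 and -3.41. The FGF list was split, with 3 genes higher and 3 lower of 11, and passing fixed the direction of 2 of the 3 lower. Fgf10 was at 26.4 against 6.78 CPM and Fgf15 at 70.4 against 18.3, whereas Fgf8, a ligand of the streak, had 1 UMI in members against 504 in the other cells.

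Of 14 contact genes that passed the filter, 4 were at least 2-fold higher and 5 lower. Passing fixed the direction of 1 of the 4 and 3 of the 5. Itga4, which encodes the integrin that binds VCAM1, was at 35.2 CPM (20.1 to 57.2) against 1.56. Its 16 UMIs lay in 8 members, and 31 UMIs lay in all other cells. The others that were higher were Cdh11, Cd44 and Pcdh7. Those that were lower were the epithelial genes Cdh1, Epcam, Cldn6 and Cldn7, and Pcdh19. Of the 18 matrix genes that passed, 7 were higher and 1 lower, and passing fixed the direction of 4 of the 7. The higher ones included Col1a1 at 35.2 against 2.16 CPM, Col1a2 at 28.6 against 5.12, the hyaluronan synthase gene Has2 at 19.8 against 2.66 and the proteoglycan gene Vcan with a log2 ratio of 1.84. Postn, below the filter, had 4 UMIs, each in another member, and none in any other EHF cell.

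Of the cytoskeletal list, 13 of 22 genes were at least 2-fold higher and 2 lower, with a median log2 ratio of 1.60. The intermediate filament genes Vim, Krt8 and Krt18 were at 416, 872 and 1360 CPM against 82.7, 266 and 422. Besides Acta2 and Tagln, the contractile genes Tpm1, Cnn2, Csrp1, Cald1 and Myl9 were each at least 2-fold higher. S100a6 and S100a11 were lower.

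**Figure D2:**
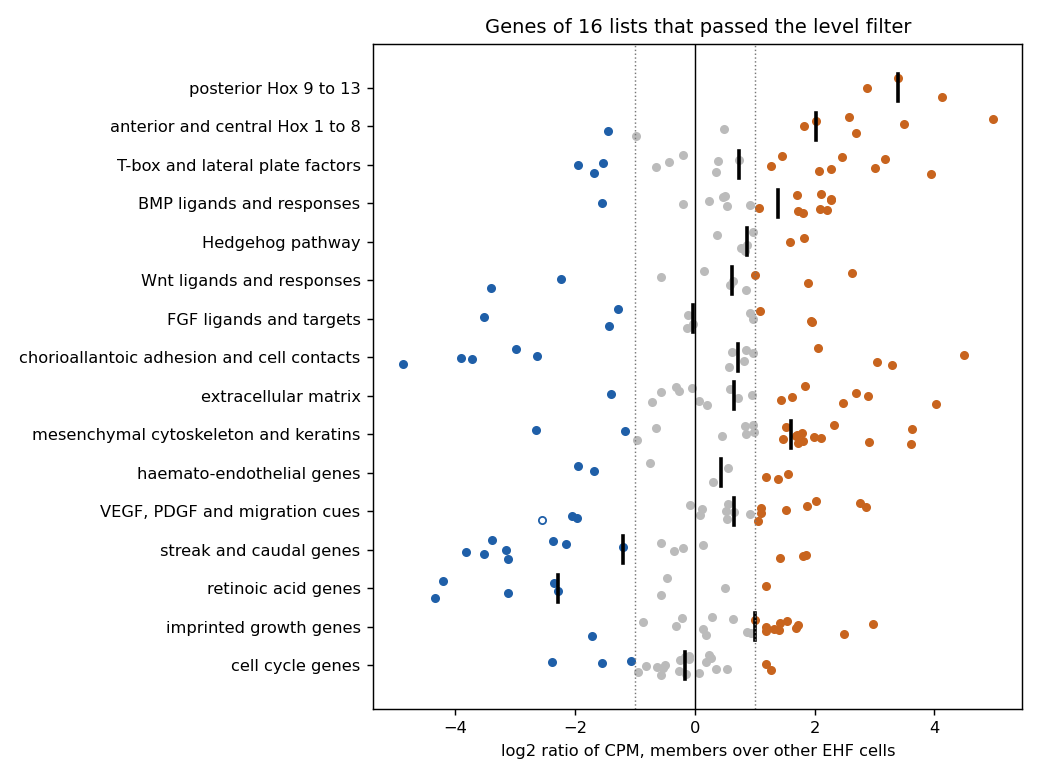
Log2 ratios of members over other EHF cells for the genes of 16 lists that had a mean level of at least 10 CPM. Each point is a gene, orange at 2-fold higher or more, blue at 2-fold lower or more, open where the ratio is a bound, and black ticks are list medians. The medians run from -2.28 for retinoic acid genes to 3.40 for posterior Hox genes. The latter rests on the 3 of 10 genes that passed, and passing fixed the direction of 2 of them.

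Genes of blood and vessel formation were present in part, with 3 of 8 listed genes higher and 2 lower. Passing the level filter fixed the direction of 1 of the 3 and 1 of the 2. Etv2, the factor that starts the endothelial and blood programme, was found in 23 members at 70.4 CPM (48.2 to 99.4) against 30.9, and Flt1 was at 28.6 against 9.74. Kdr, which encodes the main VEGF receptor, was within 2-fold, at 26.4 against 17.9 CPM. Both Etv2 and Kdr were found in 6 members. Tal1, a factor of blood progenitors, and Cdh5, Tie1, Esam, Sox17 and Cldn5, genes of differentiated endothelium, had no UMI in members. Cdh5, Tie1, Esam and Cldn5 are among 6 endothelium markers that together were at only 10.4 CPM in the other cells. Their zeros therefore cannot tell absence from a low level. Other endothelial genes were read at low counts, Pecam1 with 4 UMIs in members (8.80 against 3.51 CPM, log2 ratio 1.33, -0.59 to 2.75), Tek with 2 and Cd34 with 1. Of the VEGF, PDGF and guidance list, 8 of 19 genes were higher and 3 lower, with Vegfa at 22.0 against 5.42 CPM, the PDGF receptor gene Pdgfrb at 35.2 against 5.22, Nrp1 at 90.2 against 12.5 and no UMI of the ligand gene Apln, for which 769 were read elsewhere. In this list passing fixed the direction of 2 of the 8 higher genes and of all 3 lower ones.

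Streak and retinoic acid genes that passed the filter were mainly lower. Of the streak and caudal list, 8 of 15 genes were at least 2-fold lower and 3 higher. Passing fixed the direction of 5 of the 8 and 2 of the 3. T had 8 UMIs in 6 members, 17.6 CPM (7.60 to 34.7) against 90.9, and Pou5f1 was at 55.0 against 244 CPM. Of the retinoic acid list 5 of 9 were lower, including Aldh1a2, which encodes the enzyme that makes retinoic acid in mesoderm, with 1 UMI in members and 881 elsewhere. Passing fixed the direction of 2 of the 5. Of the imprinted growth genes 11 of 21 were higher and 1 lower, with Mest, Dlk1 at 264 against 46.9 CPM, Meg3 at 1010.3 against 308 and Igf2 at 180.5 against 67.7. Of 23 cell cycle genes 2 were higher and 3 lower.

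Of 10 marker lists of other cell types, 8 had a lower summed level in the members. The 6 endothelium markers in the table summed to 4 UMIs, 8.80 CPM against 10.4, with 5 of them at 0. The 8 blood markers summed to 22.0 against 315 CPM, with haemoglobin genes Hbb-y and Hba-a1 at 0. The 8 extraembryonic ectoderm markers summed to 19.8 against 441 CPM, and the 9 visceral and yolk sac endoderm markers to 178 against 3027 CPM, ranging from 0 to 625 CPM over members. The 9 somite markers summed to 13.2 against 109 CPM, the 8 definitive endoderm and notochord markers to 2.20 against 96.4, and the 4 surface ectoderm markers to 0 against 14.3. The 8 neuroectoderm markers summed to 63.8 against 148 CPM with 7 of them at 0, and the 7 primordial germ cell markers to 41.8 against 104 CPM. The endothelium list overlapped within counting error, and so did the 8 heart markers, at 99.1 CPM (72.3 to 133) against 96.8. Of the latter, Nkx2-5, Actn2, Myh6 and Myh7 were at 0, while Myl7 had 23 UMIs and Tnnt2 had 15, the latter at 33.0 against 7.43 CPM. The part of cells with heart genes in the contractile genes above was not tested.

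Against other groups of mesoderm cells in the library, the ratios of the Hox genes depended on the group. Comparison cells, without members, were taken by 1 UMI each of Hand1 and Ahnak (256 cells), of Myl7 and either Tnnt2 or Nkx2-5 (97 cells, the cardiac crescent) and of T and Mixl1 (144 cells, the late streak). Members that met these rules were left out. Of the 56 members, 33 met the Hand1 Ahnak rule, among 289 such cells, and 4 met the cardiac rule, among 101. The Hand1 Ahnak cells were thus the remainder of a population that held most members, and not a separate group. The members were deeper than each comparison group, with medians of 7092.5, 6408 and 5874 UMIs in the groups against 7939.5. Of the Hand1 Ahnak cells 122 also held a UMI of Elf5 or Rhox5, genes of extraembryonic ectoderm, and values without these, an alternative chosen after seeing the data, are given beside the others.

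Hoxc8 was at 5.14 CPM in the Hand1 Ahnak cells, 1.33 in the cardiac cells and 0 in the late streak cells. Its log2 ratio of members over these was 3.30 (2.17 to 4.53), 5.25 (2.63 to 10.6) and at least 3.98, taking 3 UMIs over the late streak cells as the floor, and 2.27 (1.15 to 3.51) over the 134 Hand1 Ahnak cells without Elf5 or Rhox5. Hoxd9 had log2 ratios of 2.81 (2.0 to 3.64), 4.31 (2.65 to 6.65) and 0.96 (0.26 to 1.66), and 1.92 (1.09 to 2.79) over the 134 cells. Hoxb6 had 2.0 (1.38 to 2.63), 3.38 (2.22 to 4.77) and 2.59 (1.72 to 3.54), and 1.01 (0.38 to 1.64) over the 134 cells. Each of the 3 Hox genes was higher in the members than in these groups, and the smallest of the differences was that of Hoxd9 from the late streak cells, which held it at 40.8 CPM. Other cells that clustered with the members, in clusters A and B described below, were not taken as a group here. Without thinning, 41.3% of the 75 such cells of A held Hoxd9, 41.3% Hoxb6 and 14.7% Hoxc8. Of the 96 such cells of B, 7.29%, 24.0% and 5.21% did, and of the members 39.3%, 48.2% and 35.7%. Hoxd9 and Hoxb6 were thus as frequent in these cells of A as in members, within counting error. These genes were open to the clustering.

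Cdx2 separated the members from the cardiac cells by a log2 ratio of 3.18 (2.56 to 3.86) and from the Hand1 Ahnak cells by 1.33 (1.02 to 1.64). From the late streak cells it differed by 0.12 (-0.19 to 0.42), within counting error. Wnt5a was higher than in each group, by 2.10 (1.38 to 2.82), 2.16 (1.20 to 3.20) and 1.36 (0.60 to 2.13), and by 1.07 (0.35 to 1.79) over the 134 cells. The contractile genes and Mest were close to the Hand1 Ahnak cells once those with Elf5 or Rhox5 were left out. Acta2 was higher by 1.20 (0.72 to 1.67) over all 256 and by 0.34 (-0.15 to 0.82) over the 134, Tagln by 1.03 (0.39 to 1.65) and 0.19 (-0.47 to 0.82), and Mest by 1.13 (1.01 to 1.26) and 0.27 (0.15 to 0.40). Over the late streak cells Acta2, Tagln and Mest were higher by 4.11, 6.08 and 4.71. In the cardiac cells Acta2 was about as frequent as in members, found in 25.8% against 30.4%. After thinning each cell to 3500 UMIs it was found in 18.4% of cardiac cells against 18.9% of members. Mef2c, a myocyte factor at 176 CPM in the cardiac cells, had no UMI in members, a log2 ratio of at most -4.73. Fgf8 had a log2 ratio of -5.59 over the late streak cells and Hand1 one of 2.76.

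**Figure D3:**
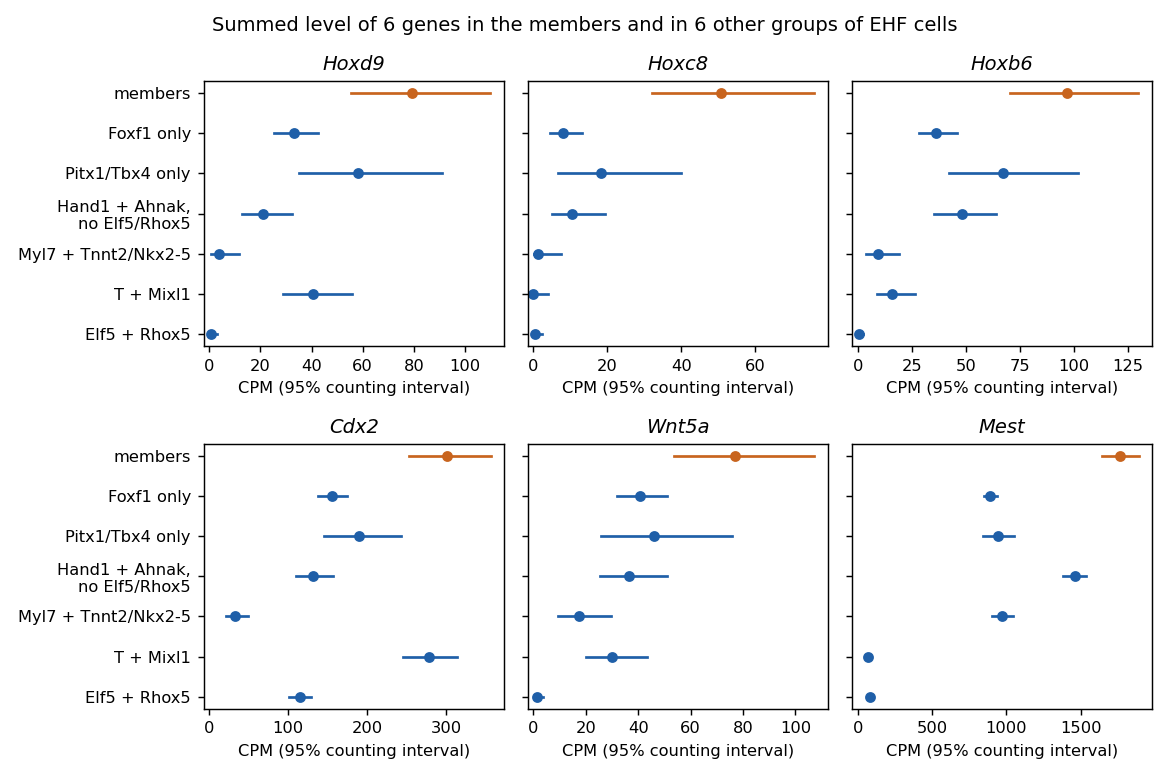
Summed levels of Hoxd9, Hoxc8, Hoxb6, Cdx2, Wnt5a and Mest in CPM with 95% counting intervals, in the members (orange) and in 6 other groups of EHF cells (blue) named by the genes that chose them, the Hand1 Ahnak cells being the 134 without Elf5 or Rhox5. Hoxc8 is highest in the members at 50.6 CPM, and the late streak cells (T and Mixl1) overlap them in Cdx2 at 278 CPM.

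The members fell mainly in a pair of clusters. When all EHF cells were clustered on 2000 variable genes with the rule genes, the reporter and sex-linked genes held out, 53 of the 56 members fell in 2 of 26 clusters, called A and B here. Cluster A held 105 cells and 30 members, 53.6% of them (39.7 to 67.0), and was led by Hoxd9, Hoxb6, Hoxd1, Spin2c and Unc5c. Cluster B held 119 cells and 23 members, 41.1% (28.1 to 55.0), and was led by Tdo2, Tagln, Acta2, Pmp22 and Snai2. The other 3 members were split between a shallow cluster, with a median of 1761.5 UMIs, and a cluster led by Cdx4 and Mesp1. Of the 15 nearest neighbours of a member, 37.1% on average were members, against 1.47% for the other cells. At resolution 1 the same 53 members lay in a single cluster of 222 cells, and at resolution 4 the split of 30 and 23 was the same.

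Genes that took no part in the clustering were read in both. Foxf1 was at 174 CPM (139 to 215) in the 75 other cells of cluster A and 158 (129 to 192) in the 96 other cells of cluster B. Pitx1 was at 47.1 (29.8 to 70.6) and 34.1 CPM (21.4 to 51.7) in the same cells, and Foxf1 was found in 42 and 55 of these cells. For Tbx4 the whole clusters were read, members included. It was found in cluster A alone of the pair, where 6 cells held 7 of the 8 UMIs in the library. None of the 119 cells of cluster B held one (0 to 4.38 CPM). Of the 6 cells, 3 were members, and Tbx4 is a gene of the rule that chose them.

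Hoxd9, Hoxb6 and Cdx2 were higher in the members of cluster A. Hoxd9 was at 130 CPM (88.1 to 184) in the 30 members of A, in 18 of them, and at 10.1 (1.22 to 36.4) in the 23 members of B, in 2 of them. Cdx2 was at 431 against 141 CPM, Hoxb6 at 134 against 50.4, Bambi at 167 against 50.4, Id1 at 222 against 60.5, Etv2 at 96.2 against 40.3 and Amot at 1016 against 181. Among other Hox genes, Hoxc8 (66.9 against 35.3 CPM, -0.44 to 2.45), Hoxb9, Hoxb8, Hoxc9, Hoxd1, Hoxb1, Hoxb2, Hoxb3 and Hoxb5 had intervals that held 0. Hoxa10, Hoxa7, Hoxc6 and Hoxc10, with 9, 8, 7 and 4 UMIs in the members of A, had none in those of B. Kdr and Isl1, with 12 and 10 UMIs in the members of A, had none in those of B. Contractile genes were higher in the members of cluster B. Acta2 had 57 UMIs in 15 members of B, 287 CPM (217.5 to 372), and 1 in those of A. Tagln was at 141 against 16.7 CPM, Ahnak at 383 against 96.2, Pmp22 at 872 against 171, Itga4 at 70.5 against 8.36, Krt18 at 2071 against 811 and Mest at 2484 against 1246. The heart genes Tnnt2 and Myl7 were also on this side, at 70.5 against 4.18 and 95.7 against 16.7 CPM, and the 4 Postn UMIs all lay in members of B. Hand1, Msx1, Bmp4, Ptch1 and Gli3 had counting intervals of the log2 ratio that held 0. These genes were open to the clustering, so the differences describe the clusters and test nothing. Over the 56 members, Hoxd9 and Acta2 were found together in 2, Hoxd9 without Acta2 in 20 and Acta2 without Hoxd9 in 15.

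**Figure D4:**
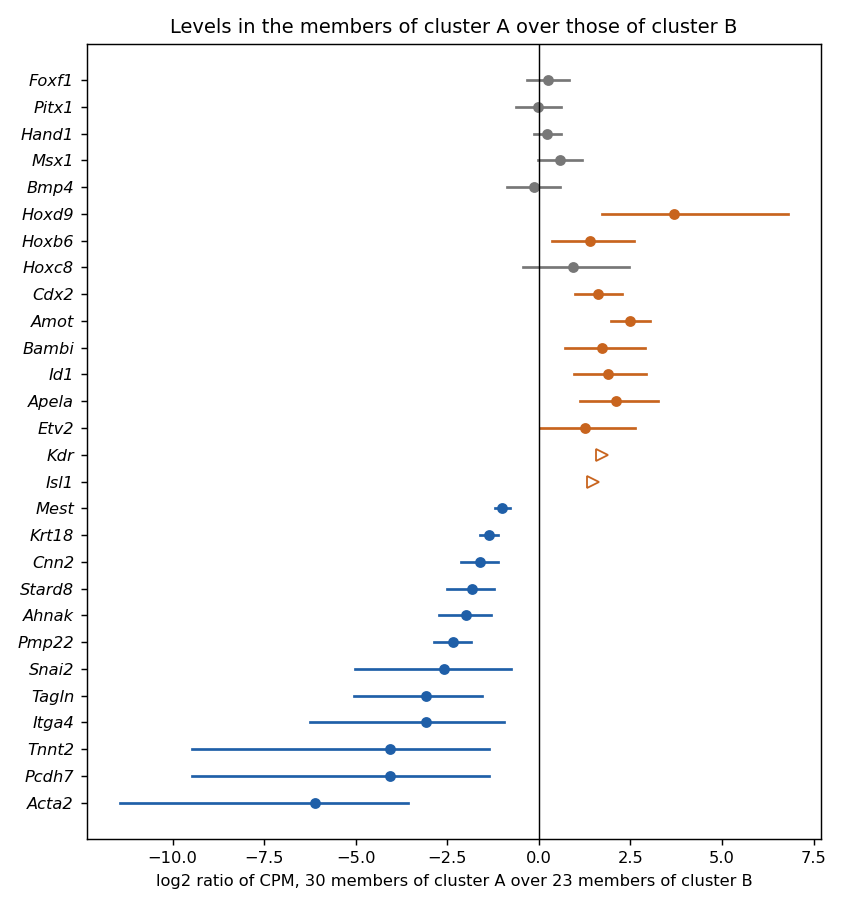
Log2 ratios of summed CPM in the 30 members of cluster A over the 23 members of cluster B with 95% counting intervals. Orange genes were higher in A and blue genes in B, grey intervals hold 0 and open triangles are bounds against 0 UMIs. Hoxd9 lies at 3.69 and Acta2 at -6.10, and Foxf1 and Pitx1, which chose the members, lie near 0.

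Cells could be called female or male from Xist and Y-linked transcripts in part, and the members held 36 female and 7 male calls. Of these calls 83.7% (69.3 to 93.2) were female, against 85.7% (84.2 to 87.2) in the other EHF cells. If the calls are right, the members came from more than 1 embryo, but the accuracy of the calls was not tested. The calls were 24 and 1 in cluster A and 12 and 6 in cluster B. The part of single embryos in the difference between the clusters was not tested.

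The tdTomato reporter was less frequent in the members than in the late streak cells. The latter were chosen by T, the gene that drives the Cre, so their reporter share was not independent of that choice. Without thinning 4 of 56 members (7.14%, 1.98 to 17.3) held a reporter UMI, 7 UMIs in all, and after thinning each cell to 3500 UMIs 1 of 53 did (1.89%, 0.0478 to 10.1). At the same depth 8.97% (7.92 to 10.1) of 2686 other EHF cells held one, and 11.6% (10.6 to 12.7) of 3438 without thinning. Each of these intervals overlapped that of the members. Also after thinning, 36.2% (27.9 to 45.2) of 127 late streak cells and 14.3% (10.1 to 19.5) of 237 cells with Foxf1 but neither Pitx1 nor Tbx4 held one, against 1.15% (0.0291 to 6.24) of 87 cardiac cells. Without thinning these shares were 49.3%, 23.3% and 3.09%. In extraembryonic ectoderm (Elf5 and Rhox5), which does not descend from the streak, it was 0 of 297, which allows up to 1.01% (3 cells), and 3 of 311 without thinning, with a median depth of 7387 UMIs. The interval of the thinned members reached below that limit. All 4 reporter cells among the members were in cluster A. Over whole clusters and without thinning, 15 of 105 cells of A (14.3%, 8.22 to 22.5) and 3 of 119 cells of B (2.52%, 0.523 to 7.19) held a reporter UMI, a feature that the clustering did not use. After thinning it was 6 of 95 (6.32%, 2.35 to 13.2) and 0 of 108, which allows up to 2.78% (3 cells). The median depths of A and B were 6065 and 5856 UMIs.

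**Figure D5:**
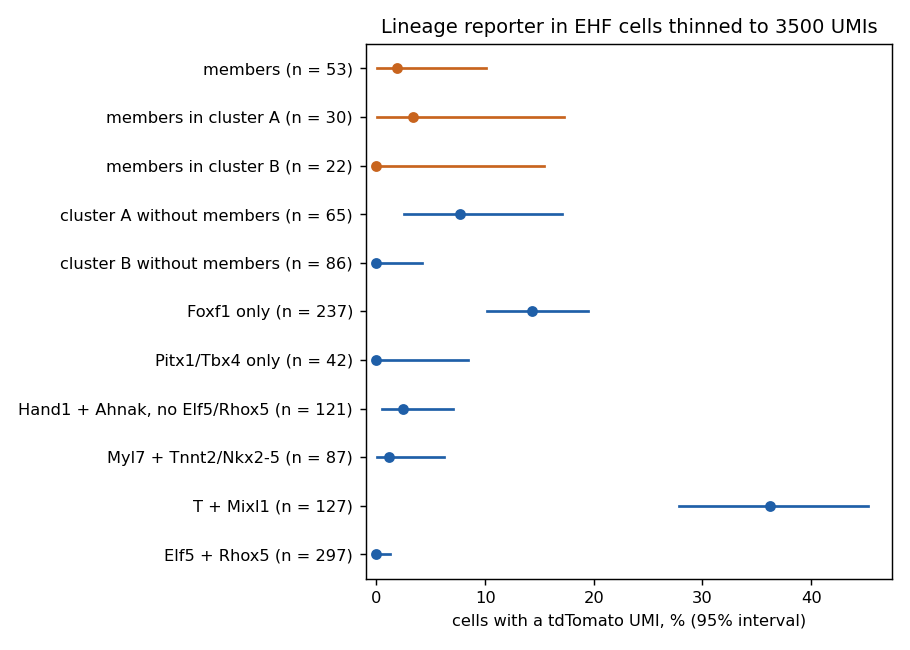
Share of cells with a tdTomato UMI after thinning each cell to 3500 UMIs, with 95% Clopper-Pearson intervals, for the members (orange) and other groups of EHF cells (blue). The members stand at 1.89% and the late streak cells (T and Mixl1) at 36.2%, the latter chosen in part by T, the gene that drives the Cre.

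Cells with this combination of genes were rare before EHF. The same rule found 0 of 3635 cells at MS-LS, which allows up to 0.0825% (3 cells), and 1 of 3994 at OB-EB, 0.0250% (0.000634 to 0.139). The earlier libraries were shallower, with medians of 4251 and 2620.5 UMIs per cell. Foxf1 alone was already present, in 134 and 225 cells of the earlier libraries, at 10.0 and 26.2 CPM of the whole library against 25.6 at EHF. Pitx1 was at 0.334, 0.493 and 8.34 CPM and Hoxd9 at 0.445, 0.903 and 9.13 CPM over the 3 stages. Hoxc8 had no UMI in either earlier library. Each stage is 1 library, so the stages are set side by side and not tested.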

How the data were processed

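The authors sequenced 10x Genomics 3′ libraries, aligned them with Cell Ranger 3.0.2 to GRCm38 with the tdTomato vector added, and deposited whole-number UMI counts per gene and cell for the cells they kept. The 2 deposited EHF tables held the same count in all 65128160 places and were counted once. The members, gene lists and comparison groups were chosen with earlier results of these data known. Counts were summed per group and scaled to CPM, with exact Poisson intervals for levels, conditional exact intervals for ratios and Clopper-Pearson intervals for shares. A gene was counted as higher or lower at a ratio of 2 among genes with a mean of at least 10 CPM. A group at 0 was set to 3 UMIs over the group, and no ratio was formed where both groups held 3 or fewer. Genes named in the text were the 20 highest and 10 lowest by ratio, found in at least 25% of the higher group, with listed genes past 2-fold and the best-known ones. The functions were tested on simulated counts. Cells were clustered with scanpy 1.11.5 and leidenalg 0.10.2 (2000 genes, 50 components, 15 neighbours, resolution 2). No doublets were removed. The barcode filters of the authors left no cell under 1004 UMIs at EHF.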

Additional observations from a re-analysis of the deposited data

How the results depend on the processing

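The members numbered 30 with at least 2 UMIs of Foxf1, 21 when the rule was applied after thinning to 3500 UMIs, 36 among cells called female, and 54 to 56 under the other alternatives. Genes at least 2-fold higher numbered 345 at a mean level of 20 CPM and 905 at 5 CPM, and genes at least 2-fold lower 238 and 824, since the level sets how many genes are tested. With the rule applied after thinning, 830 genes were lower. Listed genes past 2-fold numbered 86 higher and 37 lower, and 18 lower at 20 CPM. The share of members with a reporter UMI was 0% with at least 2 UMIs of Foxf1 (30 cells) and 0% with the rule applied after thinning (21 cells). At resolution 1 the cluster that held most members held 94.6% of them. Without Elf5 and Rhox5 cells in the Hand1 Ahnak group, an alternative chosen after seeing the data, the log2 ratio of members over it was 1.92 for Hoxd9, 1.01 for Hoxb6, 1.07 for Wnt5a and 0.27 for Mest. Of 424 ratios of 53 genes under 8 alternatives, 392 stayed within the counting interval, 32 left it and 0 changed sign. No paired analysis was possible because the result comes from 1 library and no test. Leaving out a replicate could not be done, since both EHF tables hold the same counts. The reads of Spin2c and other genes with near-identical copies, and of overlapping Hox transcripts, may have been split or dropped in counting. With 454296 UMIs over the members, the interval of a gene with no UMI there reached 8.12 CPM.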

Other observations

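Cells just outside the rule differed from the members in some genes and overlapped them in others. The 262 cells with Foxf1 but neither Pitx1 nor Tbx4 held more Fgf8 (33.7 CPM, 25.9 to 43.1), Mef2c (46.0 CPM, 36.8 to 56.8) and Myl7 (149.8 CPM, 132.8 to 168.5) than the members, in which these genes were at 2.20, 0 and 50.6 CPM. The 56 cells with Pitx1 or Tbx4 but no Foxf1 had Hoxd9 at 58.1 CPM (35 to 90.8) and Hoxb6 at 67.3 CPM (42.2 to 101.9), intervals that overlapped those of the members, and Spink1 at 3277 CPM, 730 of its 1071 UMIs in a single cell.

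The members of cluster B had more Meg3 and H19, imprinted noncoding RNAs, than those of cluster A, at 1577 against 594 CPM and 2131 against 1066 CPM. Phlda2, also imprinted, stood the other way, at 962 CPM in B and 1961 CPM in A. Apela, a ligand of the apelin receptor, was at 217 CPM in the members of A and 50.4 CPM in those of B, and the receptor gene Aplnr was at 8.36 and 65.5 CPM.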
